A study of Mus musculus with 9 samples.

Results

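The comparison described here sets 3 prostate cancer cell lines that were grown out of tumours recurring under the PIM kinase inhibitor AZD1208 against the parental line from which the tumours started. The samples were chosen by their labels alone. The 3 AZD1208 lines, labelled biological replicates, were compared with the mean of 3 parental arrays, which are labelled technical replicates and so count as 1 sample. These 6 arrays are part of a series of 9, whose other 3 arrays hold recurrent lines from mice given vehicle. The vehicle lines entered the model, which therefore held 7 samples, and are given beside the AZD1208 lines where they bear on a result. Total RNA was measured on arrays of the type Affymetrix Mouse Gene 2.0 ST, in which a set of short probes reads each transcript, and levels are on the log2 intensity scale, where a difference of 1 is a doubling.

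All 9 arrays are labelled MYCCaP, a mouse prostate cancer line from a tumour of a mouse with a MYC transgene driven in the prostate by a probasin-based, androgen-dependent promoter. Parental cells were cultured with dihydrotestosterone, an androgen. The recurrent lines came from tumours in castrated mice, and their labels give culture without dihydrotestosterone (AZD1208-DHT and Vehicle-DHT). The AZD1208 lines thus differ from parental cells by passage through a castrated host, by the drug, by regrowth as a new line and by the absence of androgen in the medium, and these cannot be told apart in this comparison. The labels do not say if the lines stem from 3 different mice or if AZD1208 was kept in the medium, and they give no strain or age. The p-values measure only the spread between these lines.

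PIM1, PIM2 and PIM3 are constitutively active serine/threonine kinases that depend on their level rather than on an activation step, and their transcription is driven mainly by cytokine signalling through STAT factors. They phosphorylate BAD, regulators of cap-dependent translation and cell cycle inhibitors, and they cooperate with MYC in tumours. MYC in turn pairs with MAX to drive genes of ribosome production, nucleotide synthesis and cell growth, while the MXD proteins and MNT compete for MAX and repress.

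Of 22180 genes named on the array, the 30% with the lowest mean over samples (below 5.81) were left out, and 15526 were tested. Most samples are recurrent lines, so a gene dim in parental cells could pass through a high recurrent level. This favours counts above parental. The median SD of a gene was 0.25 between AZD1208 lines, 0.19 between vehicle lines and 0.09 between the technical parental arrays. The spread between independent parental cultures was not measured. The number of arrays limits the precision. AZD1208 3 stood apart in scale, with the lowest interquartile range over genes (2.89, against 3.11 to 3.43 on the other arrays) and the lowest array quality weight (0.342). Among markers of prostate epithelium, Cldn3 had a parental mean of 12.43 and 11.80 to 12.27 in AZD1208 lines, and Krt8 had 9.19 and 8.24 to 10.44. Krt18, Cdh1, Cldn4 and Cldn7 also passed the filter but were dimmer, with parental means of 6.99, 6.995, 7.19 and 5.85. The median over genes was 6.72 to 6.73 on parental arrays. Epcam (4.51 to 5.08 on all arrays) and Esrp1 (5.11 to 5.95) lay below the filter.

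Moderated, two-sided tests in limma with Benjamini-Hochberg adjustment over all 15526 genes called 0 genes higher (0%) and 0 lower (0%) in AZD1208 lines at an adjusted p of 0.05. The smallest adjusted p was 0.204. In limma, fewer genes had an unadjusted p under 0.05 than that threshold gives by chance over 15526 genes. An exact permutation of 3 lines against 1 sample has 4 arrangements, so its two-sided p on the absolute difference cannot go below 0.25. The median SE of a difference was 0.28 on the log2 scale. The accounts that follow are therefore of values and positions. For position, a gene counts as above parental when all 3 AZD1208 lines exceed the highest parental array, and below when all 3 lie under the lowest. By that count 1464 genes (9.43%) were above and 1998 (12.9%) below. These shares over all genes are the background for every list count that follows. Where a list lies near them, its named members are given as values only. With a mean difference of at least 1 as well, 231 genes (1.49%) were above and 94 (0.605%) below.

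The lines differed in how far they lay from parental cells. In AZD1208 1, 478 genes were at least 1 above the parental mean and 197 at least 1 below. The corresponding counts were 958 and 324 in AZD1208 2, and 103 and 209 in AZD1208 3. AZD1208 2 was thus the most distant and AZD1208 3 the only one of the 3 with more genes lower than higher at that size. In all 3 lines together, 65 genes were at least 1 above the parental mean and 29 at least 1 below. The median difference over all genes was -0.02, and 46.6% of genes had a higher mean in AZD1208 lines.

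The genes named first were ranked by the AZD1208 line nearest to the parental mean, which favours differences carried by every line. Haptoglobin (Hp), a secreted protein that binds free haemoglobin, headed those that were higher. Its level was 6.73 in parental cells (6.39 to 6.95 on the technical arrays) and 12.26, 11.55 and 11.77 in AZD1208 lines 1, 2 and 3. All 3 lines lay more than 4 above the highest parental array, and they also lay above the vehicle lines at 11.52, 10.25 and 10.13. The difference from parental was 5.13 (SE 0.55), with an adjusted p of 0.204. Igfbp5, a secreted protein that binds insulin-like growth factors, had 7.24 in parental cells and 12.31, 12.15 and 11.36 in AZD1208 lines. The difference was 4.70 (SE 0.51), with an adjusted p of 0.204, and the lines overlapped the vehicle lines (11.14 to 12.19). The arrays carry no detection calls, so a dim level such as that of Hp in parental cells is not shown to lie above background, and no fold is given for these genes. Over 18 alternatives the adjusted p passed 0.05 in 5 of 18 for Hp and in 3 of 18 for Igfbp5. For both genes these include counting the technical parental arrays as 3 samples. That setting treats technical spread as biological and gave the lowest adjusted p. Hp and Igfbp5 also passed with the replicate number as a block. No label gives that pairing, and it was taken from these same values, so the block has no independent basis.

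The other 13 leading genes on the higher side were Cdcp3, Adh1, Postn, Clec2d, Lrp1, Agt, Mxd4, Steap4, Npy, Saa3, Fcgrt, Ddah2 and Selenbp1, each with an adjusted p of 1. Adh1, an alcohol dehydrogenase that oxidises ethanol and retinol, had 7.02 in parental cells and 10.93, 10.36 and 10.39 in AZD1208 lines, a difference of 3.54 (SE 0.88). A second, dimmer probe set of Adh1 differed by 0.10, and the mean of both by 1.82. Lrp1, a large endocytic receptor, had 7.12 and then 10.26, 11.32 and 9.26, a difference of 3.16 (SE 0.76). Npy, which encodes neuropeptide Y, had 8.54 and then 11.93, 12.08 and 10.39, a difference of 2.92 (SE 0.86). The lowest line was AZD1208 3 for Lrp1 and Npy, and for Adh1 the 3 lines lay within 1 of each other. Agt, the precursor of angiotensin, had 6.98 in parental cells and 10.85, 11.12 and 8.99 in AZD1208 lines (difference 3.34, SE 1.35). Fcgrt, the heavy chain of the neonatal Fc receptor, had 8.43 and then 10.19, 10.90 and 10.27 (difference 2.02, SE 0.47). Selenbp1, a selenium-binding protein, had 8.27 and then 10.58, 9.98 and 10.45 (difference 2.06, SE 0.60). For both Fcgrt and Selenbp1 the 3 lines lay within 1 of each other.

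Keratins led the genes that were lower. Krt4, a keratin of moist squamous linings, had 12.79 in parental cells (12.76 to 12.84) and 6.85, 6.01 and 7.99 in AZD1208 lines. That is a difference of -5.84 (SE 1.15), with an adjusted p of 1. Krt6a, a keratin of stressed or rapidly renewing epithelium, had 11.68 in parental cells and 6.43, 5.07 and 7.39 in AZD1208 lines. The difference was -5.38 (SE 1.01), and again the adjusted p was 1. Both keratins were lowest in AZD1208 2 and highest in AZD1208 3. Krt79 (-1.86, SE 0.28) and Krt19 (-1.56, SE 0.24) had smaller differences but tighter lines, 6.16 to 6.79 against 8.37 and 6.59 to 6.96 against 8.29, and each had an adjusted p of 0.698. Every gene named in this paragraph lay below the lowest parental array in all 3 lines, which the ranking by the nearest line favours.

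The other 11 leading genes on the lower side were S100a7a, Stra6, Slc25a48, Mpzl2, Ppbp, Scnn1g, Flvcr2, Psca, Plek2, Tigit and Elmod1. S100a7a, of the S100 calcium-binding family, had 9.50 in parental cells and 7.35, 7.12 and 7.56 in AZD1208 lines (difference -2.16, SE 0.33, adjusted p = 0.698). Stra6, the membrane receptor for retinol-binding protein, had 9.26 and then 6.57, 6.56 and 7.48 (difference -2.40, SE 0.82). Psca, a surface antigen of prostate and other epithelia, had 11.31 and then 7.0, 7.04 and 9.86 (difference -3.34, SE 1.38). For Psca the mean hides a split, since AZD1208 3 differed from the parental mean by -1.44 and the other two lines lay more than 4 below. Tigit, an inhibitory receptor best known from T and NK cells, had a similar split, with 10.58 in parental cells and 6.76, 7.67 and 9.30 in AZD1208 lines (difference -2.67, SE 1.18). The lymphocyte markers tested gave no matching pattern, with a mean level over 5 genes of 6.27 to 6.34 on parental arrays and 6.12 to 6.54 in AZD1208 lines. Elmod1 had the smallest difference of the 15 (-1.30, SE 0.20, adjusted p = 0.698), with 6.31 to 6.44 in AZD1208 lines against 7.70.

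**Figure D1:**
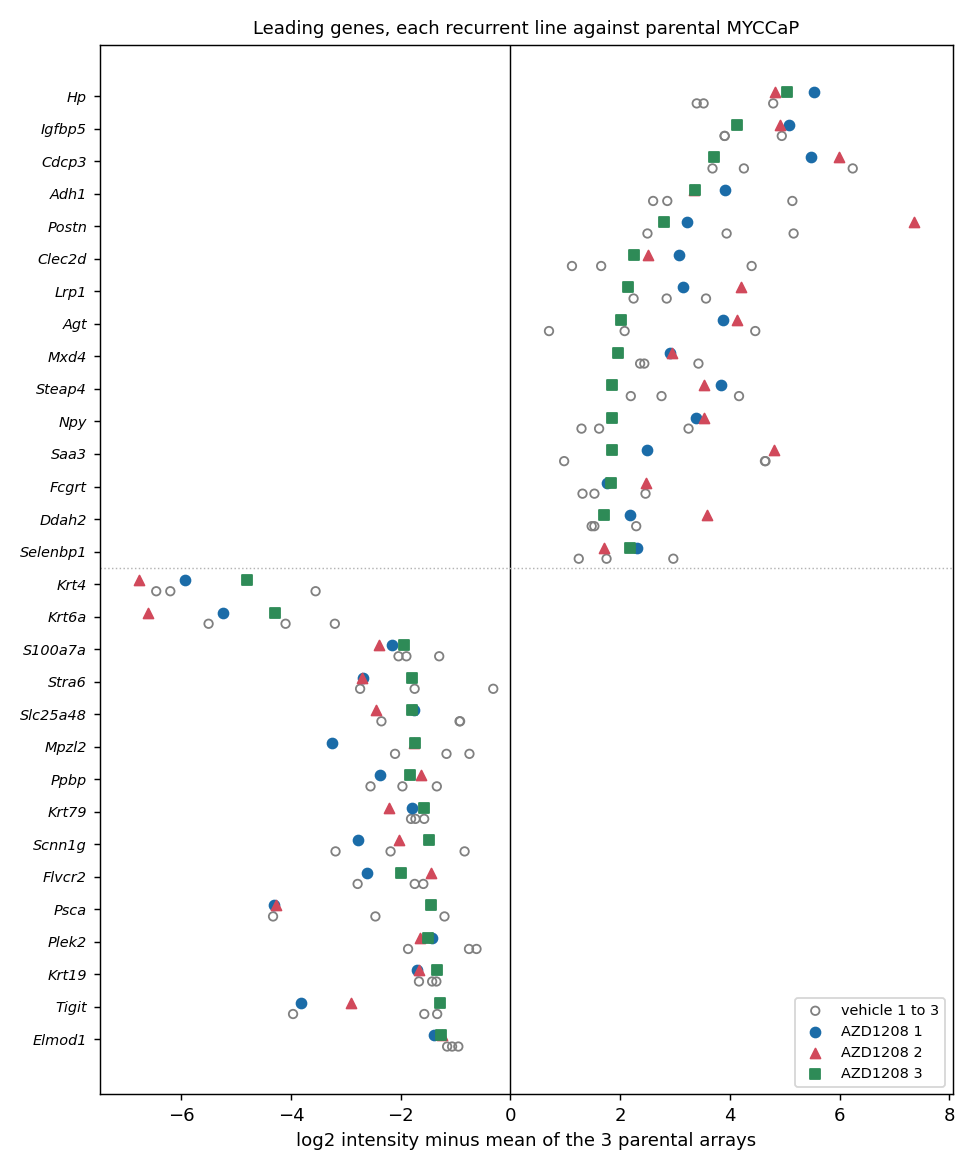
Log2 intensity minus the mean of the 3 parental arrays (x axis) for the 15 leading genes higher and the 15 lower in AZD1208 lines (y axis, above and below the dotted line). Filled symbols are the 3 AZD1208 lines, open circles the 3 vehicle lines, and the vertical line at 0 is the parental mean; AZD1208 3 is the nearest of the 3 lines to parental in 21 of the 30 genes.

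Among these 30 genes AZD1208 3 was the line nearest to parental in 21, AZD1208 2 in 6 and AZD1208 1 in 3. The array of AZD1208 3 also had the narrowest scale, as given above, and its part in this order was not tested. Against vehicle lines, limma called 0 genes (0%) in the AZD1208 lines. Unadjusted, 81 genes had a p under 0.05 in limma, fewer than that threshold gives by chance over the 15526 genes tested. Of the 30 genes, Hp lay above all vehicle lines and Elmod1 below them, positions shared by 219 genes (1.41%) and 307 genes (1.98%) of those tested. For the other 28 the AZD1208 and vehicle lines overlapped.

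The PIM kinases, the targets of the drug, were not higher in the lines that regrew under it. Pim3 had 10.49 in parental cells (10.22 to 10.69) and 9.74, 9.38 and 9.79 in AZD1208 lines, all below the parental arrays. The difference was -0.85 (SE 0.25), with an unadjusted p of 0.0104 and an adjusted p of 1 in limma. Pim1 had 10.27 and then 9.36, 9.81 and 9.40, also below all parental arrays, a difference of -0.74 (SE 0.37). A second, dimmer probe set of Pim1 differed by -0.10, and the mean of both by -0.42. Pim2 had 8.04 and then 7.73, 7.99 and 7.92, overlapping the parental arrays, with a difference of -0.16 (SE 0.23). The AZD1208 and vehicle lines overlapped for Pim1 and Pim2, and for Pim3 the AZD1208 lines (9.38 to 9.79) overlapped the vehicle lines (9.62 to 9.92) too. The arrays read RNA and say nothing of kinase activity.

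Myc did not separate the groups. Its level was 9.78 in parental cells and 9.43, 9.79 and 10.30 in AZD1208 lines, so the 3 lines lay below, at and above the parental value. The difference of 0.06 (SE 0.43) turned negative without AZD1208 3 (-0.17) and with array quality weights (-0.22). This gene is mouse Myc, and the annotation used does not tell how far the transgene is read with it.

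The 13 genes of the MYC, MAX and MXD network tested had a median difference of 0.03, with 2 above and 3 below all parental arrays, and 0 passed the test. Mxd4, one of the MAX partners that repress MYC targets, was the member with the largest difference. It had 7.61 in parental cells and 10.52, 10.55 and 9.57 in AZD1208 lines, a difference of 2.61 (SE 0.52). Mnt, another repressor of the network, had 8.36 and then 8.79, 8.79 and 9.0 (0.50, SE 0.21). Mga and Mxd3, which also pair with MAX, lay on the other side, with differences of -0.71 (SE 0.29) and -0.59 (SE 0.28). The repressors of the network therefore did not share a direction.

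**Figure D2:**
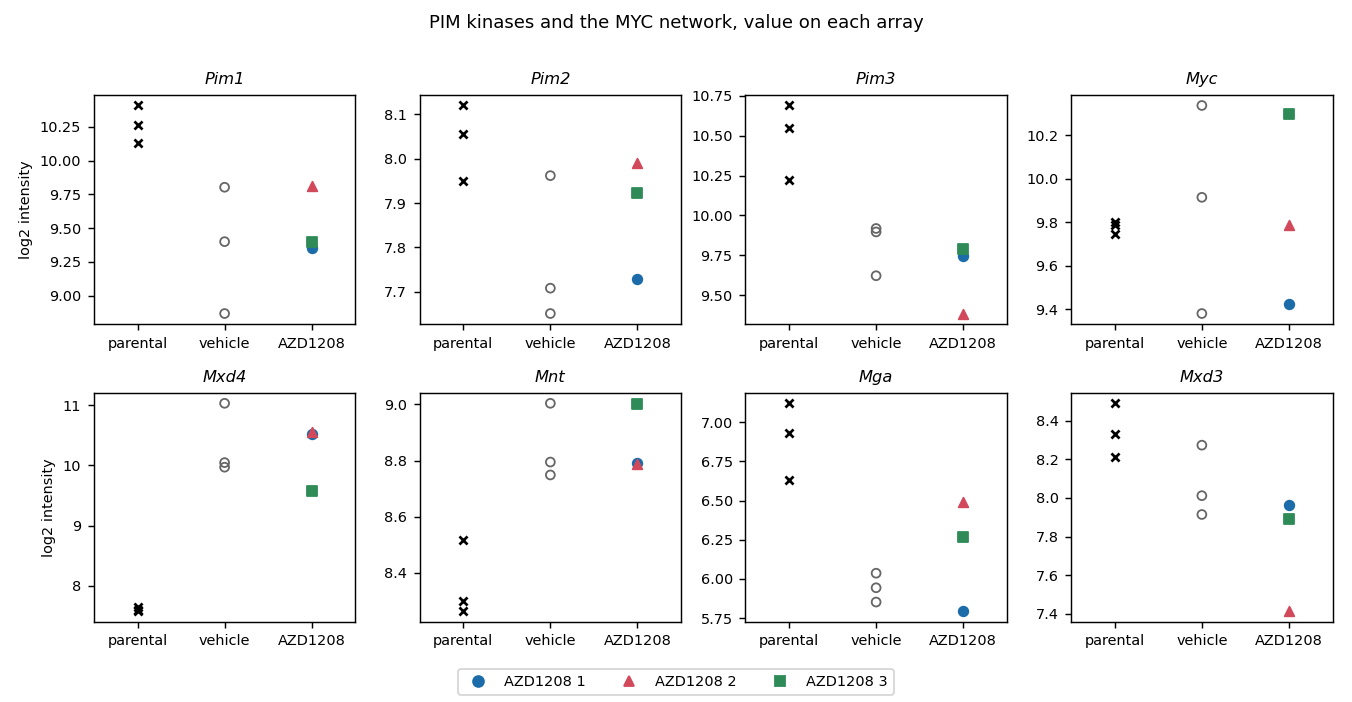
Log2 intensity (y axis, separate scale for each gene) of the PIM kinases, Myc and 4 of its network partners on each array, by group (x axis). Crosses are the 3 technical parental arrays, open circles the vehicle lines and filled symbols the AZD1208 lines; Pim1, Pim3, Mga and Mxd3 lie below and Mxd4 and Mnt above all parental arrays in the AZD1208 lines, while Myc and Pim2 overlap them.

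Genes of DNA replication and cell division were lower together, by small amounts. Of 40 replication and E2F target genes listed, 38 were tested, and 30 lay below all parental arrays in all 3 lines against 0 above. Their median difference was -0.52, against -0.02 over all genes, and 37 of 38 had a lower mean. Of 38 mitosis and G2/M genes tested, 24 lay below and 0 above, with a median of -0.47 and a lower mean in 38. No member passed the test over all genes, and 2 and 1 members had an unadjusted p under 0.05. By line the replication median was -0.38, -0.69 and -0.45 in AZD1208 1, 2 and 3, and the mitosis median -0.36, -0.43 and -0.64. The medians of the vehicle lines ran from -0.85 to -0.18 for replication and from -0.83 to -0.19 for mitosis, around those of the AZD1208 lines.

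Rrm2, the small subunit of ribonucleotide reductase, had 12.42 in parental cells and 11.61, 10.96 and 11.56 in AZD1208 lines, a difference of -1.04 (SE 0.41). Cdc6, which loads the replicative helicase at origins, had 10.65 and then 9.66, 9.39 and 9.95 (-0.98, SE 0.43). Mcm3, a subunit of that helicase, had 11.71 and then 10.72, 10.55 and 11.07 (-0.92, SE 0.46). Fen1, the flap endonuclease of lagging strand synthesis, was the other replication gene of the first 4 (-0.98, SE 0.43, or -0.65 as the mean of its probe sets). Among mitosis genes Cdc25c, the phosphatase that activates the mitotic kinase, had 9.34 and then 8.27, 8.41 and 8.60 (-0.91, SE 0.47). Aurka, a kinase of the spindle poles, had 11.59 and then 10.88, 10.79 and 10.92 (-0.72, SE 0.32). Incenp, of the chromosomal passenger complex, and Kif2c, a microtubule depolymerase of the kinetochore, each differed by -0.81 (SE 0.42 and 0.41). In all 8 genes the 3 lines lay below the parental arrays, which the ranking by the nearest line favours. The lines were closest to one another for Aurka.

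A list of ribosome biogenesis genes and other growth targets of MYC followed the same direction. It is called the ribosome list below, although it also holds growth genes such as Ldha. Of 39 tested, 24 lay below all parental arrays, 0 above, and 39 had a lower mean, with a median of -0.43. Rrp12, a factor in ribosomal subunit maturation and export, had 10.08 in parental cells and 8.91, 8.32 and 9.23 in AZD1208 lines (-1.27, SE 0.64). Grwd1, a histone-binding protein of ribosome assembly, had 10.66 and then 9.48, 9.29 and 9.93 (-1.09, SE 0.39). Rrp9 of the U3 processing complex (-1.05, SE 0.47) and the helicase Ddx18 (-0.71, SE 0.29) were the others of the first 4. The line medians were -0.30, -0.64 and -0.35, and 0 members passed the test.

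**Figure D3:**
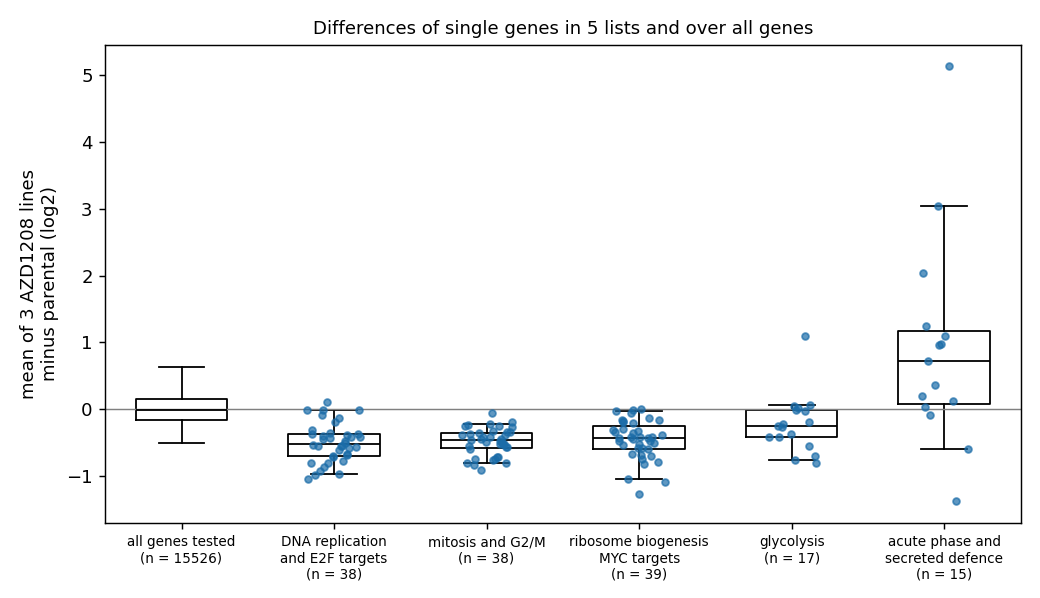
Difference of each gene between the mean of 3 AZD1208 lines and parental (y axis, log2) in 5 lists, with all 15526 genes tested at the left. Boxes span the quartiles with the median as a line, whiskers reach the 5th and 95th percentiles, and points are single genes; nearly all points of the replication, mitosis and ribosome lists lie below 0, with medians of -0.52, -0.47 and -0.43.

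Because these 3 lists lay mostly on one side of parental, their promoters were searched for the short motifs textbooks attach to them. The windows are those of RefSeq on GRCm38.p6, from 250 bases before to 50 after each start site, read on both strands. The searched words were TTTCCCGC, TTTCGCGC, TTTGCCGC and TTTGGCGC for E2F, TTTGAA for the cell cycle homology region (CHR) of mitotic genes, and CACGTG for the E-box that MYC and MAX bind. No word of one motif contains or is contained in a word of another. The promoters shown are those among the first 4 genes of each list that hold a match, so that its place can be seen, with the match in capitals.

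Cdc6 (E2F, chr11:98907901-98908200, plus strand): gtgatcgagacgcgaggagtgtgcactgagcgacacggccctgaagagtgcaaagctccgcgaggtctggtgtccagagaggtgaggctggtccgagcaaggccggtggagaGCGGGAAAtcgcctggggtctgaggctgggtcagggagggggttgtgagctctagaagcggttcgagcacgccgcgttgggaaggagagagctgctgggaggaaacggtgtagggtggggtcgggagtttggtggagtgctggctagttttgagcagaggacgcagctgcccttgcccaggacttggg
Mcm3 (E2F, chr1:20820263-20820562, minus strand): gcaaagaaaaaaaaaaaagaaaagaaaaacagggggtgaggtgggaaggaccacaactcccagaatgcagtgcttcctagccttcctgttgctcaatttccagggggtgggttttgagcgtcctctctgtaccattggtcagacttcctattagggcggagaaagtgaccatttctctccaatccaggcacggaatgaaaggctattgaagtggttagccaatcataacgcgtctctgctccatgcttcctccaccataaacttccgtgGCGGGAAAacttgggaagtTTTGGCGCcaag
Aurka (CHR, chr2:172370521-172370820, minus strand): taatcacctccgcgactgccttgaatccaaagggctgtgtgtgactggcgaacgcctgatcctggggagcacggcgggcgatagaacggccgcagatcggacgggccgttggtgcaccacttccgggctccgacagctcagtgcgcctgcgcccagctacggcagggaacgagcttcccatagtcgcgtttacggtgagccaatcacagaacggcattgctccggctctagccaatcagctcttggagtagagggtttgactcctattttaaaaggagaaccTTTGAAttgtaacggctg
Kif2c (CHR, chr4:117178723-117179022, minus strand): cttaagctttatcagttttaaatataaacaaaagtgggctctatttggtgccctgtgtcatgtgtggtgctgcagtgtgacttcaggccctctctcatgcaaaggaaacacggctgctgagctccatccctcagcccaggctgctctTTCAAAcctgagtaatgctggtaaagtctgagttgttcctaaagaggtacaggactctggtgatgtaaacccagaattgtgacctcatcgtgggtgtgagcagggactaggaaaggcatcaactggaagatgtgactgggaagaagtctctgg
Grwd1 (E-box, chr7:45830740-45831039, minus strand): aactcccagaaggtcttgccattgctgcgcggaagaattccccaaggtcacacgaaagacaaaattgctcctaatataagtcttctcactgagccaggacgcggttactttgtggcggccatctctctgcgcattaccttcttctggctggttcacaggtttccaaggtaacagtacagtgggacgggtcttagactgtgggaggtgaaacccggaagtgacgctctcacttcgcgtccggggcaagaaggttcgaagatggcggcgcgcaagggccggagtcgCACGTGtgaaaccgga

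Cdc6 held 1 E2F word, on the reverse strand and upstream of the start site, while Mcm3 held 2 just after it. The CHR word of Kif2c was also on the reverse strand and upstream. The CHR word of Aurka and the E-box of Grwd1 also lay within the last 50 bases. The E2F words are not in the windows of Rrm2 and Fen1, nor the E-box in those of Rrp9 and Ddx18. Cdc25c, Incenp and Rrp12 were not analysed here for promoters. Over lists, an E2F word occurred in 15 of 32 replication promoters (46.9%), against 501 of 12128 genes tested that have a window (4.13%). TTTGAA occurred in 25 of 30 mitosis promoters (83.3%), against 14.3% of all. CACGTG occurred in 11 of 35 promoters of the ribosome list (31.4%), against 10.9%. These shares describe lists that were written for such genes. Among all genes below the parental arrays, 7.21% of 1596 held an E2F word, 16.6% TTTGAA and 12% CACGTG. Among genes above, the shares were 3.31% of 1180, 11.9% and 12.4%. A match is a word in a window and no evidence that a factor binds there.

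Sugar breakdown genes leaned the same way, with an exception. Of 17 glycolysis genes tested, 11 lay below all parental arrays and 1 above, and the median difference was -0.26, with -0.22, -0.39 and -0.15 in the 3 lines. Pfkp, an isoform of the committing enzyme phosphofructokinase, had 10.43 in parental cells and 9.30, 9.54 and 10.03 in AZD1208 lines (-0.81, SE 0.45). Its liver-type partner Pfkl (-0.76, SE 0.53) and the isomerase Tpi1 (-0.55, SE 0.28) were also below in all 3 lines. The member above was Aldoc, an aldolase isoform, with 8.45 and then 9.37, 10.02 and 9.23 (1.09, SE 0.41). None of these passed the test. Ldha is counted both here and among the growth targets above.

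Cholesterol and fatty acid synthesis genes were lower in 2 of the 3 lines. Of 22 tested, 7 lay below and 1 above all parental arrays, and the line medians were -0.32, 0.07 and -0.37. Pmvk and Mvk, both kinases of the mevalonate pathway, differed by -0.66 (SE 0.29) and -0.59 (SE 0.25). Scd1, which desaturates fatty acids, had 11.14 in parental cells and 9.99, 10.08 and 10.75 in AZD1208 lines (-0.86, SE 0.44). Acaca, the acetyl-CoA carboxylase that commits carbon to fatty acids, differed by -0.47 (SE 0.36).

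Subunits of the respiratory chain divided, with 6 of 42 above, 11 below and a median of -0.10. Ndufa1, of complex I, had 7.61 in parental cells and 9.31, 8.96 and 8.91 in AZD1208 lines, a difference of 1.44 (SE 0.31). Ndufa7 (0.64, SE 0.23) and Ndufa4 (0.53, SE 0.22) were above as well, and Ndufa9 (-0.45, SE 0.32) below. The list has no common direction.

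Of 22 secreted acute phase and defence proteins written, 20 had a probe set and 15 passed the filter. Over all 20, 9 lay above and 2 below all parental arrays, with a median of 0.16. The median was 0.72 over the 15 and 0.38 over these without AZD1208 2, and some of the 15 passed through a high recurrent level. Besides Hp, the first 4 were Saa3, Cp and Slpi. Saa3, a serum amyloid A protein, had 6.48 in parental cells and 8.97, 11.29 and 8.33 in AZD1208 lines (3.05, SE 1.59). Ceruloplasmin (Cp), a copper-carrying oxidase, had 10.66 and then 11.80, 12.42 and 11.49 (1.24, SE 0.57). Slpi, which inhibits proteases of leukocytes, had 8.02 and then 8.69, 9.81 and 8.83 (1.09, SE 0.47), while the vehicle lines had 7.97 to 8.68. The 2 members below, named after their values were seen, were Orm1 (-1.37, SE 0.74) and Itih4 (-0.60, SE 0.33), both secreted by liver in the acute phase. The list therefore holds large differences of both signs.

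Several of these genes respond to NF-kB, and there AZD1208 2 stood apart from the other AZD1208 lines. The 26 NF-kB targets tested had a median difference of -0.13 in AZD1208 1, 1.0 in AZD1208 2 and 0.08 in AZD1208 3, with 3 above and 0 below all parental arrays. Lcn2, a secreted iron-siderophore binder, had 7.01 in parental cells and 8.45, 11.35 and 7.37 in AZD1208 lines (2.04, SE 1.45). Icam1, an adhesion molecule for leukocytes, had 7.45 and then 7.74, 8.74 and 7.55 (0.56, SE 0.47). The chemokine Ccl20 differed by 0.15 (SE 0.22) and overlapped the parental arrays. In the members with a wide spread the highest of the AZD1208 lines was AZD1208 2. The list medians of vehicle lines 1, 2 and 3 were -0.07, 0.33 and 0.06. The members that follow were named after their values were seen. Vehicle 2 lay near AZD1208 2 for Cxcl5 (10.84 against 10.58) and Vcam1 (7.55 against 7.58). It lay lower for Nfkbie (8.11 against 9.93) and Tnfaip3 (9.56 against 10.36).

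Of 22 interferon response genes tested, 5 lay above and 1 below all parental arrays, with a median of 0.14 and line medians of -0.0030, 0.44 and 0.15. Ifitm3, a membrane protein that blocks virus entry, was even across the lines, with 8.48 in parental cells and 9.29, 9.26 and 9.24 in AZD1208 lines (0.79, SE 0.32). Vehicle lines had 8.32, 8.89 and 9.15 for the same gene. The AZD1208 lines lay above all of them, a position shared by 219 genes (1.41%) of those tested. Ifi27 had 7.18 and then 8.61, 8.98 and 7.97 (1.34, SE 0.51). Usp18, which removes ISG15 from proteins, and Oasl2 differed by 0.49 (SE 0.28) and 0.52 (SE 0.34). MHC class I genes showed little, with 1 of 12 above, 0 below and a median of -0.03. Tapbp, which loads peptide onto class I molecules, was that member (0.59, SE 0.44). H2-K1 (0.17, SE 0.42), H2-Q4 and H2-M3 overlapped the parental arrays.

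**Figure D4:**
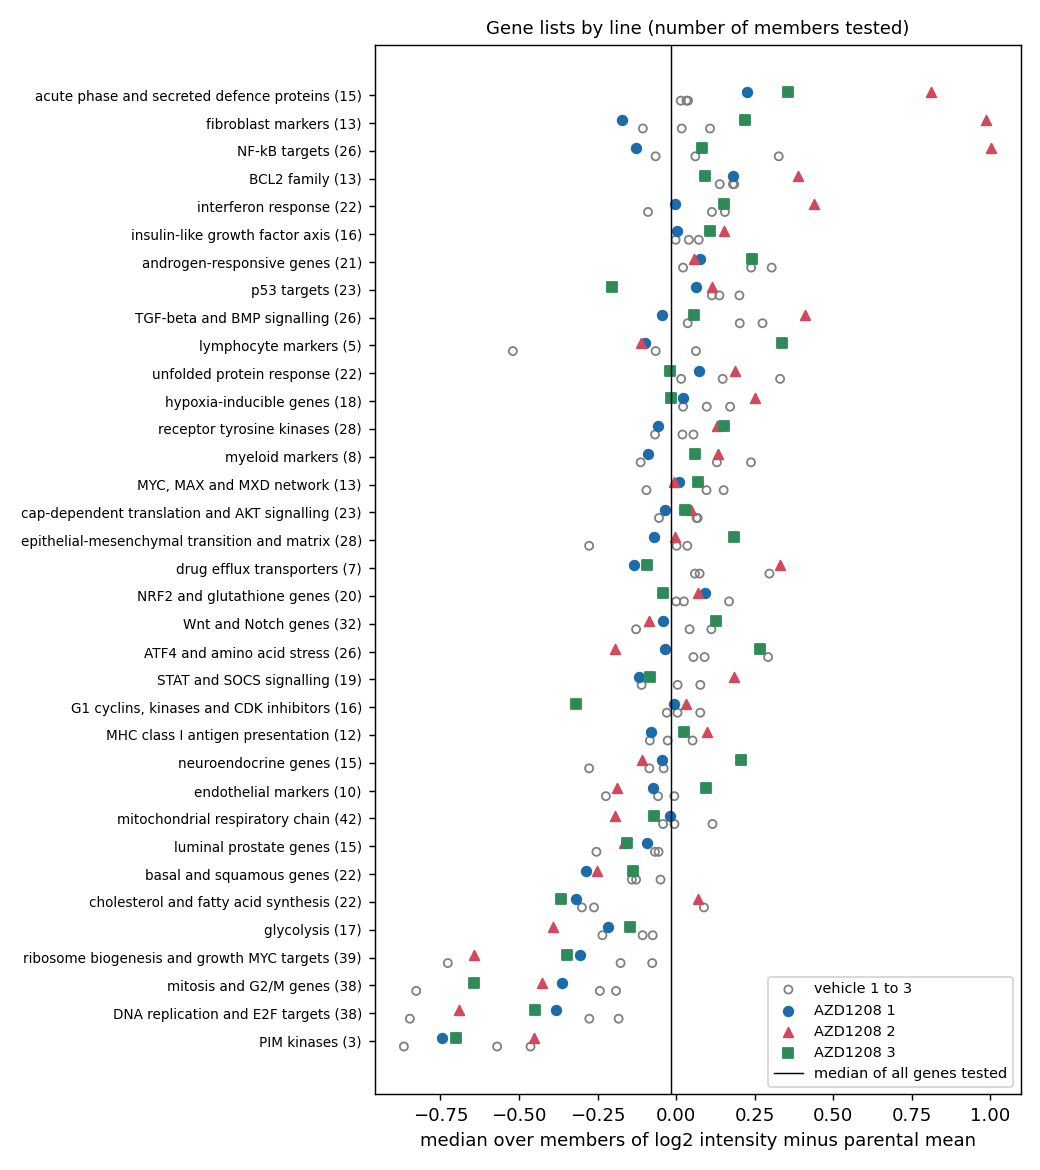
Median over the tested members of each of 35 lists (y axis, number of members in brackets) of log2 intensity minus the parental mean (x axis). Filled symbols are AZD1208 lines, open circles vehicle lines and the vertical line is the median of all genes tested. Replication, mitosis and ribosome lists lie left of it in all 6 recurrent lines. NF-kB targets lie farthest to the right in AZD1208 2 (1.0), followed by vehicle 2 (0.33).

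Androgen-responsive genes were not lower as a group, although the recurrent lines were grown without dihydrotestosterone. Of 30 written, 28 had a probe set and 21 were tested. Among those 21, 8 lay above and 2 below all parental arrays, with a median of 0.12 and line medians of 0.08, 0.06 and 0.24. Acpp, among the 8 and named after its values were seen, had 5.77 in parental cells and passed the filter through its recurrent levels. Steap4, a metalloreductase, had 8.47 in parental cells and 12.30, 12.00 and 10.33 in AZD1208 lines (3.07, SE 0.90). Mme, the membrane endopeptidase neprilysin, had 8.49 and then 10.91, 11.13 and 9.50 (2.02, SE 0.87). Gsta4, a glutathione transferase for lipid peroxidation products, had 7.84 and then 9.72, 9.75 and 8.86 (1.60, SE 0.42), and the amino acid transporter gene Slc38a4 differed by 2.06 (SE 1.02). Fkbp5, a widely used androgen target named after its values were seen, had 9.56 in parental cells and 9.56, 9.62 and 9.62 in AZD1208 lines (0.04, SE 0.22). The first 4 lay above all parental arrays in all 3 lines, which the ranking by the nearest line favours, and Fkbp5 did not.

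Luminal prostate genes had 0 of 15 above and 4 below, with a median of -0.10. Besides Psca and Krt19, those below were Esrp2, an epithelial splicing regulator (-0.67, SE 0.31), and the tight junction gene Cldn3 (-0.44, SE 0.33). The lineage transcription factor gene Foxa1, named after its values were seen, had 11.84 in parental cells and 11.85, 11.71 and 11.79 in AZD1208 lines (-0.06, SE 0.23). Basal and squamous genes had 7 of 22 below and 1 above, with a median of -0.17. The first 4 were keratins, with Krt78 (8.08 in parental cells and 6.56, 6.50 and 6.93 in AZD1208 lines, -1.42, SE 0.26) beside Krt4, Krt6a and Krt79. The other 3 below, Krt14, Krt13 and Lamb3, and the 1 above, the basal regulator gene Trp63 (0.30, SE 0.40), were named after their values were seen. So were Krt15 and Sprr1a, in which AZD1208 2 was above parental. Krt15 had 9.31 in parental cells and 6.34, 10.12 and 7.08 in AZD1208 lines (-1.46, SE 1.64). Sprr1a had 6.52 and then 6.84, 10.51 and 6.87 (1.55, SE 1.31). Neuroendocrine genes had 2 of 15 above and 0 below with a median of -0.03. These were Uchl1, a neuronal ubiquitin hydrolase, with 12.20 and then 13.03, 12.60 and 12.34 (0.46, SE 0.31, or 0.23 as the mean of its probe sets), and Ddc, the decarboxylase of dopamine synthesis (0.16, SE 0.20). Eno2 (0.21, SE 0.25) and Gast (-0.07, SE 0.20) overlapped the parental arrays.

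Genes of cell survival and growth factor signalling are read against the shares over all genes, 9.43% above and 12.9% below. In the BCL2 family, 6 of 13 (46.2%) lay above and 1 (7.69%) below, with a median of 0.15 that was -0.03 without AZD1208 2. Bcl2, the founding inhibitor of mitochondrial cell death, had 8.97 in parental cells and 9.85, 9.95 and 9.50 in AZD1208 lines (0.80, SE 0.31). A second, dimmer probe set of Bcl2 differed by 0.04, and the mean of both by 0.42. Bok, a BAX-related effector, had 7.84 and then 9.18, 9.15 and 8.33 (1.05, SE 0.49). Bak1, a death effector itself, was the member below, with 11.29 and then 10.40, 10.61 and 10.81 (-0.68, SE 0.29). Bik, a BH3-only activator of death, was slightly above (0.24, SE 0.21). Of the members above, Bcl2 prevents death, while Bok, Bik, Bmf, Bbc3 and Pmaip1 promote it. Bmf, Bbc3 and Pmaip1 were named after their values were seen.

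Of 28 receptor tyrosine kinases tested, 8 (28.6%) lay above and 1 (3.57%) below, with a median of 0.04. Ddr2, a receptor for fibrillar collagen, had 6.07 in parental cells and 7.46, 10.55 and 8.53 in AZD1208 lines (2.77, SE 1.08). Pdgfra, a receptor for platelet-derived growth factor, had 7.47 and then 9.27, 9.84 and 8.24 (1.65, SE 0.71). Insr and Egfr, the insulin and epidermal growth factor receptors, had smaller and more even differences of 0.83 (SE 0.32) and 0.77 (SE 0.34). The 1 member below, named after its values were seen, was the ephrin receptor gene Epha2 (-0.99, SE 0.59). In the insulin-like growth factor axis, 4 of 16 (25%) lay above and 2 (12.5%) below, the latter near the share over all genes, with a median of 0.13. Igf1r had 9.13 and then 9.29, 9.90 and 9.61 (0.47, SE 0.29), and the adaptor gene Irs2 differed by 0.33 (SE 0.21).

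STAT and SOCS genes, which link cytokines to PIM transcription, had 1 of 19 above and 3 below with a median of -0.02. These counts are near the shares over all genes. Stat5b had 10.02 in parental cells and 9.58, 9.29 and 9.16 in AZD1208 lines (-0.67, SE 0.24). Socs3, a feedback inhibitor of cytokine receptors, had 8.80 and then 8.47, 7.68 and 8.50 (-0.58, SE 0.36, or -0.32 as the mean of its probe sets), and the kinase gene Tyk2 differed by -0.30 (SE 0.26). Il6st, the shared receptor chain of the interleukin-6 family, was the member above (0.85, SE 0.51), with 9.53, 10.81 and 9.53 against 9.11. Of 23 genes of cap-dependent translation and AKT signalling, 2 lay above and 5 below with a median of 0.03. Rps6kb2, an S6 kinase, had 9.55 and then 8.90, 8.93 and 9.04 (-0.60, SE 0.24). Sgk1, a kinase related to AKT, differed by -0.48 (SE 0.24) and Tsc2, a brake on mTORC1, by 0.37 (SE 0.21). Pdk1 in this list is pyruvate dehydrogenase kinase, with 7.34 and then 8.72, 7.96 and 7.75 (0.81, SE 0.38).

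The G1 regulators divided, with 2 of 16 above, 4 below and a median of -0.02. Cdkn2a, which encodes p16 and p19ARF, had 9.99 in parental cells and 10.56, 11.24 and 10.64 in AZD1208 lines (0.83, SE 0.33). Rbl2, a pocket protein of resting cells, had 8.62 and then 9.58, 9.16 and 9.07 (0.65, SE 0.26). Cdkn1a, which encodes p21, a PIM substrate, had 9.73 and then 9.27, 8.84 and 8.94 (-0.71, SE 0.33). Cdkn2d, another CDK inhibitor, differed by -0.48 (SE 0.23). CDK inhibitors were therefore found on both sides. The 23 p53 targets also divided, with 7 above and 7 below. Btg2, an antiproliferative gene, had 7.78 and then 8.77, 9.22 and 8.74 (1.13, SE 0.40). Trp53inp1 differed by 1.56 (SE 0.76) and the death receptor gene Tnfrsf10b by -0.85 (SE 0.53). Trp53inp1 had 5.59 in parental cells and passed the filter through its recurrent levels.

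Stress response genes had no shared direction, but single members stood out. Of 26 ATF4 and amino acid stress genes, 6 lay above and 4 below with a median of -0.01. Aldh1l2, a mitochondrial folate enzyme, had 6.29 in parental cells and 7.69, 7.56 and 7.30 in AZD1208 lines, a tight difference of 1.23 (SE 0.23). Slc7a11, the cystine importer, had 9.13 and then 10.34, 10.62 and 9.88 (1.15, SE 0.40), and the vehicle lines reached higher (10.52 to 11.38) but overlapped. Ddit4, an inhibitor of mTORC1 signalling that is also counted among p53 and hypoxia genes, had 8.31 and then 9.54, 9.21 and 9.15 (0.99, SE 0.35). The neutral amino acid transporter gene Slc1a4 differed by 0.72 (SE 0.26). For all 4 the lines lay above the parental arrays, which the ranking by the nearest line favours.

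Unfolded protein response genes had 3 of 22 above and 2 below, near the shares over all genes (9.43% and 12.9%), with a median of 0.06. The co-chaperone gene Dnajb9 differed by 0.96 (SE 0.78), Pdia6 by 0.45 (SE 0.28), the chaperone gene Hspa5 by 0.26 (SE 0.26) and Edem1, of glycoprotein disposal, by -0.65 (SE 0.39, or -0.42 as the mean of its probe sets). Hypoxia-inducible genes had 4 of 18 above and 2 below. Bhlhe40, a transcriptional repressor of the clock, had 10.15 in parental cells and 8.98, 9.55 and 8.91 in AZD1208 lines (-1.0, SE 0.42). Epas1, which encodes HIF-2α, had 6.75 and then 7.78, 9.04 and 7.13 (1.23, SE 0.71). NRF2 and glutathione genes had 4 of 20 above and 2 below, and the 4 above were Slc7a11 with the glutathione transferases Gsta4, Gstm1 (1.10, SE 0.37) and Gstm2 (0.77, SE 0.35). Gstm1 had 7.66 and then 9.19, 8.74 and 8.34. Drug efflux transporters had 1 of 7 above, Abcc4 (0.55, SE 0.30), and 1 below, Abcb1b (-0.40, SE 0.43), while Abcb1a (-0.20, SE 0.53) and Abcc1 (0.03, SE 0.34) overlapped the parental arrays.

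In TGF-beta and BMP signalling, 5 of 26 lay above and 1 below, with a median of 0.09 and 0.41 in AZD1208 2. Tgfbr3, a co-receptor, had 8.92 in parental cells and 10.43, 9.57 and 9.37 in AZD1208 lines (0.86, SE 0.45). Bmpr1b, a BMP receptor, had 6.55 and then 8.98, 8.19 and 6.94 (1.49, SE 0.90). The BMP target gene Id3 differed by 0.94 (SE 0.49) and the ligand gene Tgfb3 by 0.41 (SE 0.30). Wnt and Notch genes had 2 of 32 above and 3 below, neither more than the share over all genes, with a median of -0.01. Notch1 had 7.27 and then 8.24, 8.44 and 7.87 (0.92, SE 0.33), and the Wnt receptor gene Fzd6 differed by 0.86 (SE 0.48). The ligand genes Wnt4 (-1.15, SE 0.87) and Wnt7b (-0.88, SE 0.65) lay below all parental arrays.

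Of 28 genes of epithelial-mesenchymal transition and matrix, 6 lay above and 2 below, with a median of 0.03. Vimentin (Vim), the intermediate filament of mesenchymal cells, had 13.27 in parental cells and 13.73, 13.91 and 13.67 in AZD1208 lines (0.50, SE 0.20). Periostin (Postn), a matricellular protein, had 5.36 and then 8.58, 12.71 and 8.16 (4.45, SE 1.72). Timp2, an inhibitor of matrix proteases, differed by 0.47 (SE 0.29). The lines were even for Vim and uneven for Postn, where AZD1208 2 stood more than 4 above the others.

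A culture from a tumour can hold cells of the host, so markers of other cell types were read. Postn and Pdgfra are also fibroblast markers. Of 13 fibroblast markers tested of 16 written, 4 lay above and 1 below, with a median difference of 0.61 and line medians of -0.17, 0.99 and 0.22. Postn, among the 4, had 5.36 in parental cells and passed the filter through its recurrent levels. Fbln2, a matrix glycoprotein, differed by 0.83 (SE 0.47) and the regulator gene Twist2 by -0.59 (SE 0.30). The mean log2 level over the 13 was 7.05 to 7.15 on parental arrays, 7.44 to 8.13 in vehicle lines, and 7.43, 8.84 and 7.54 in AZD1208 lines. The collagen genes that define fibroblasts did not follow, with differences of -0.02 for Col1a1, -0.12 for Col1a2 and -0.02 for Col3a1. Acta2, of smooth muscle and myofibroblasts, had 11.87 in AZD1208 2 against 7.71 and 8.0 in the other AZD1208 lines and 7.78 in parental cells. Acta2 and the collagens were named after their values were seen. Whether a few cells of another type or more RNA per cancer cell gave these levels cannot be told apart in bulk RNA. The arrays carry no detection calls, so no marker can be given as absent.

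Markers of other host cells were read in the same way. Endothelial markers had 0 of 10 above and 0 below, and their mean level was 6.47 to 6.52 on parental arrays and 6.35 to 6.62 in AZD1208 lines. Cdh5 (-0.14, SE 0.20), Egfl7 (-0.21, SE 0.24), Pecam1 (-0.08, SE 0.22) and Kdr (-0.07, SE 0.26) overlapped the parental arrays. Lymphocyte markers had 0 of 5 on either side, with Cd4 at -0.32 (SE 0.38), Cd3d and Cd3e at 0.08 (SE 0.35 and 0.28) and Cd79a at 0.13 (SE 0.24). Myeloid markers had a mean level over 8 genes of 6.58 to 6.61 on parental arrays, 6.52 to 6.83 in vehicle lines, and 6.42, 6.81 and 6.65 in AZD1208 lines, so AZD1208 2 was the highest of its group. Of the 8, the lysosomal protein gene Cd68 was above (0.44, SE 0.38), with 7.04 in parental cells and 7.11, 8.08 and 7.24 in AZD1208 lines, and Fcgr3 was below (-0.27, SE 0.23). Cd14, named after its values were seen, had 8.09 and then 7.54, 8.86 and 8.03 (0.06, SE 0.81). Cd163 (0.09, SE 0.22) and Fcer1g (-0.11, SE 0.22) overlapped the parental arrays.

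The 6 genes with the largest range among the AZD1208 lines were Serping1, Nxf3, Thbs2, Folh1, Prg4 and Postn, and in all 6 the highest line was AZD1208 2. Serping1, the C1 inhibitor of complement, had 5.93, 11.40 and 9.47 against 5.91 in parental cells. Nxf3, of the nuclear RNA export factor family, had 5.15, 10.05 and 7.57 against 4.97, while the vehicle lines (4.77 to 5.34) stayed at the parental level. Thrombospondin 2 (Thbs2) had 6.78, 11.49 and 6.61 against 6.32, so only AZD1208 2 was far from parental. Folh1, which encodes prostate-specific membrane antigen, had 9.52, 10.93 and 6.15 against 5.84, with AZD1208 3 near parental. Prg4, a lubricating proteoglycan, had 6.06, 10.62 and 6.11 against 5.69, and 11.65 in vehicle 1. Differences from parental for these 6 ran from 1.91 (SE 2.47) for Prg4 to 4.45 (SE 1.72) for Postn, each with an adjusted p of 1 in limma.

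**Figure D5:**
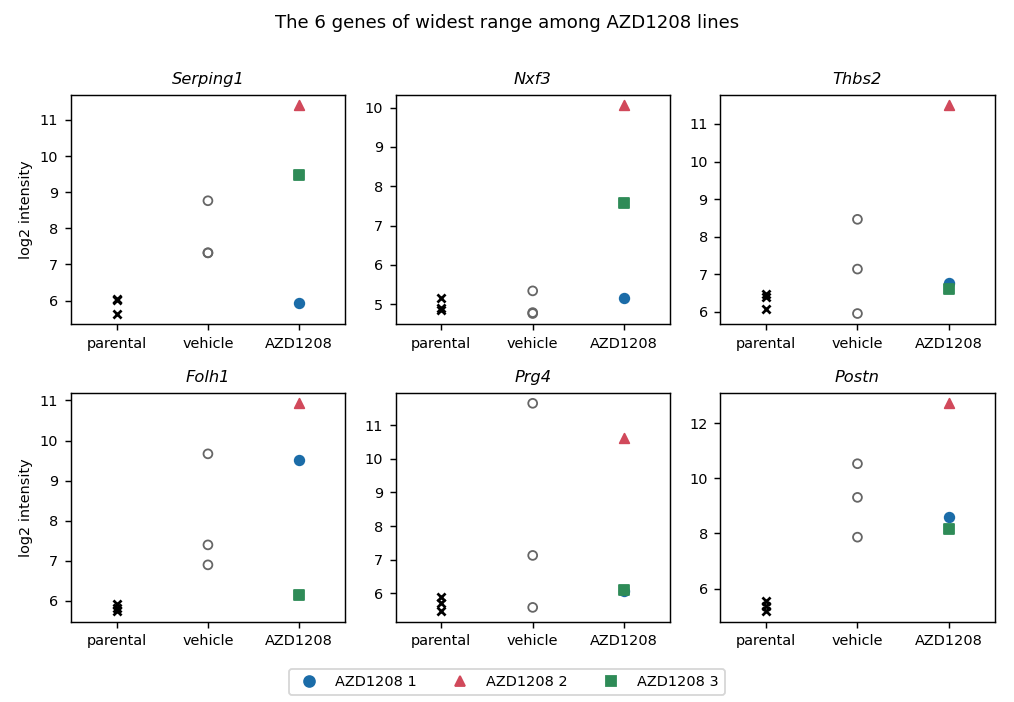
Log2 intensity (y axis, separate scale for each gene) of the 6 genes with the largest range among AZD1208 lines, by group (x axis). Crosses are the technical parental arrays, open circles the vehicle lines and filled symbols the AZD1208 lines. AZD1208 2 is the highest AZD1208 line in all 6. Nxf3 is near 5 in parental and vehicle arrays but 7.57 and 10.05 in AZD1208 3 and 2, through which it passed the filter.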

How the data were processed

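The authors deposited log2 intensities for each probe set, made with oligo per the submitters' processing notes. Version, background correction and normalization: not given in the sources used here, and the scale was kept as deposited. Of 41345 probe sets, 23521 had 1 gene symbol in the platform annotation, 1814 had several and 16010 were not listed. Symbols were checked through RefSeq (GRCm38.p6), which updated 0 and did not hold 193. For 1082 genes with more than 1 probe set the brightest was used.

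The 3 parental arrays were averaged, and limma 3.58.1 (R 4.3.3; lmFit, then eBayes) fitted 7 samples by group, with 4 residual and 3.36 prior degrees of freedom. As the parental group is 1 sample, it is assumed to vary like the lines. P-values were adjusted by Benjamini-Hochberg, with a threshold of 0.05. The procedure was tested on simulated data.

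Vehicle and AZD1208 lines share replicate numbers. Across genes, their deviations from their own group's mean had correlations of 0.146, 0.118 and 0.532 for numbers 1, 2 and 3, so the numbers were taken to pair the lines by this correlation alone, since no label gives a pairing. Vehicle 1 and AZD1208 2, which have different numbers, correlated at 0.264, above the pairs of numbers 1 and 2. The pairing is therefore not established.

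The comparison, the 35 gene lists (858 entries, 792 with a probe set, 713 tested) and the tests were chosen with earlier results of these data known. Named genes are Pim1, Pim2, Pim3 and Myc, then 15 higher and 15 lower, taken by adjusted p where any passed and otherwise by the line nearest to parental. Up to 4 genes per list follow by the same ranking, with the 6 of widest range among AZD1208 lines. Predicted, olfactory, vomeronasal, small RNA and antigen receptor segment symbols were passed over.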

Additional observations from a re-analysis of the deposited data

Results flagged for a closer look

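Among probe sets that the platform annotation does not list, 7487 reached the same mean as the genes tested. Of these, 65 lay above all parental arrays in all 3 AZD1208 lines with a mean difference of at least 1 (0.868%), and 66 lay below by as much (0.882%). They enter no comparison of genes, and the sequences they read are not named here.

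Ddc, the decarboxylase of dopamine synthesis, lay on opposite sides of the parental mean in the recurrent groups. It had 6.43 in parental cells (6.37 to 6.45 on the technical arrays), 6.47, 6.66 and 6.64 in AZD1208 lines, and 6.42, 6.24 and 6.39 in vehicle lines. Vehicle 1 and 3 thus lay within the technical spread of the parental arrays. The AZD1208 lines exceeded the vehicle lines by 0.24 on average, with an adjusted p of 1 in limma, so the difference did not pass the test.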

How the results depend on the processing

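Over 18 alternatives, the 154 named genes kept the sign of their difference except 10. The 30 leading genes were chosen with every line well away from the parental mean. That 0 of them turned follows from this choice and is no measure of robustness. Against 0 genes higher and 0 lower past the threshold, counting the parental arrays as 3 samples called 26 higher and 15 lower, which treats technical spread as biological. These included 7 of the 15 leading genes higher and 7 of the 15 lower. Taking the parental mean as a fixed reference called 1 higher (Hp). Array quality weights called 2 (Hp and Igfbp5), as did the replicate block, which changed no other call. Leaving out a replicate gave 0 to 1 higher, the 1 being Hp without vehicle 1. For AZD1208 against vehicle every alternative run gave 0 calls. Genes above all parental arrays ranged from 1710 to 3510 when a replicate was left out, and genes below from 2196 to 4576. Both highest counts came without AZD1208 3, and without AZD1208 1 the first was 2302. Above by at least 1, the counts ranged from 153 without AZD1208 2 to 560 without AZD1208 3, and below by at least 1 from 86 to 154, the last also without AZD1208 3. With one line fewer the rule is easier to meet. With array quality weights the sign turned for Myc (-0.22), Abcc1 (-0.10), Kdr (0.023), Cd3d (-0.043) and Cd3e (-0.050). When a replicate was left out it turned for 10 genes. The differences then ranged from -0.17 (without AZD1208 3) to 0.27 for Myc, from -0.015 (without parental array 3) to 0.27 for Ccl20, from -0.15 (without AZD1208 2) to 0.41 for H2-K1, and from -0.15 to 0.011 (without AZD1208 2) for H2-M3. They ranged from -0.48 to 0.011 (without AZD1208 1) for Abcb1a, from -0.15 (without AZD1208 2) to 0.14 for Abcc1, with -0.0094 without parental array 3, and from -0.15 to 0.10 (without AZD1208 2) for Kdr. Without AZD1208 3 the sign turned for 3 of the 4 lymphocyte markers named, with ranges from -0.046 to 0.20 for Cd3d, from -0.11 to 0.18 for Cd3e and from -0.00093 to 0.19 for Cd79a. The cause of these was not tested. All 10 had differences smaller than their SE. The values carry no detection calls, so differences of dim genes can be understated.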
